A study of Mus musculus with 8 samples.

Results

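Cytosolic ribosomal protein genes were followed in mouse MPNST cells with and without p53 after inhibition of the MET kinase. Members were chosen by symbol, as *Rpl* or *Rps* with a number and at most 1 letter out of a, l, x and y, together with *Rplp0*, *Rplp1*, *Rplp2* and *Rpsa*. Symbols ending in -ps, the *Rps6k* kinases and *Rps27l* were left out. The rule found 82 of 50600 genes, of which 51 belonged to the large and 31 to the small subunit, and 78 of them (48 and 30) reached 10 counts in 2 or more of the 8 libraries and could be tested. *Rpl10l* and *Rps4l* had no counts, *Rpl39l* had 1 and *Rpl3l* 2, each in 1 NF1-MET vehicle library, and these 4 paralogs were not tested. Their widely expressed parents were well counted, as *Rpl10*, *Rpl3* and *Rps4x* lay above 400 CPM (counts relative to the library's total) in each library and *Rpl39* between 58.3 and 68.5 CPM. *Rpl6l* and *Rpl32l* matched the rule but are annotated as processed pseudogenes, and *Rps4l* as a transcribed processed pseudogene.

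Ribosomal proteins assemble on ribosomal RNA in the nucleolus into a small subunit, which decodes the mRNA, and a large subunit, which forms peptide bonds and guides the new chain through the exit tunnel. Their mRNAs are among the most abundant in growing cells and carry a 5′ terminal oligopyrimidine (TOP) stretch, through which growth signals that pass through mTORC1 control their translation. When assembly is disturbed, RPL5 and RPL11 with the 5S ribosomal RNA can bind MDM2 and thereby stabilize p53.

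NF1-MET cells come from a malignant peripheral nerve sheath tumor (MPNST) of a mouse with a Plp-creERT tg/+ recombinase, which the Plp promoter drives in Schwann lineage cells, a lox-stop-loxMET tg/+ transgene and *Nf1* fl/ko alleles, and they have lost *Cdkn2a*. NF1-MET;sgP53 cells were made from them with a lentiviral CRISPR guide against *Trp53*. Both lines were grown overnight in serum and then given vehicle (DMSO) or the MET inhibitor capmatinib at 100 nM for 24 h, with 2 replicates for each of the 4 conditions. Each genotype is a single line, so effects of p53 cannot be told apart from other differences between the lines, and the count table names the NF1-MET libraries SEVV and SEVC, in which EV might stand for an empty vector. Replicates are the separately labelled wells of a line, and p-values measure the spread between them.

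Libraries held 30116810 to 42781371 gene counts. *Trp53* had 182 and 193 CPM in the NF1-MET vehicle libraries, and 126 and 128 CPM after capmatinib. The edited line had 97.5 and 100 CPM under vehicle and 68.0 and 68.8 CPM under capmatinib. It was lower in NF1-MET;sgP53 in both treatments (log2 fold change -0.94, SE 0.033 and -0.89, SE 0.029), which matches the labels, although a CRISPR lesion need not lower the mRNA. Of the Schwann lineage markers, *Sox10* and *Ngfr* were at or below 0.176 CPM and were not tested, *S100b* stayed under 0.5 CPM, and *Sox9* (16.0 to 66.0 CPM) and *Twist1* (41.0 to 46.2 CPM) were the only list members besides *Met* above 3 CPM. The list without *Met* summed to 92.9 to 114 CPM with vehicle and 62.6 to 65.8 CPM with capmatinib, led by *Sox9*, and its part in the results below was not tested. Leukocyte, endothelial, epithelial and macrophage markers (5 genes) summed to at most 0.482 CPM in every library. One non-coding gene with ribosomal RNA sequence, *Gm42418*, took 1.108% to 13.11% of the counts, least in NF1-MET;sgP53 capmatinib replicate 2.

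Cytosolic ribosomal protein genes together were lower with capmatinib in both lines. Their CPM, with TMM factors over the 8 libraries, summed to 25730 and 25290 in NF1-MET vehicle, and to 22070 in both capmatinib libraries (means 25510 ± 310 and 22070 ± 2.5, SD, n = 2). In NF1-MET;sgP53 the sums were 26540 and 25540 with vehicle and 22550 and 22520 with capmatinib (26040 ± 711 and 22540 ± 22.8, SD, n = 2). No capmatinib library reached the level of any vehicle library. Both subunits moved alike, because the ratio of large to small subunit sums stayed between 1.35 and 1.37 in all 8 libraries. As a share of all counts as deposited, the members held 2.61% and 2.72% in NF1-MET vehicle and 2.03% and 1.98% with capmatinib. In NF1-MET;sgP53 they held 2.77% and 2.81% with vehicle and 2.11% and 2.33% with capmatinib. Once rows of ribosomal RNA genes were left out of the totals, the shares with capmatinib lay between 2.28% and 2.36% and those with vehicle between 2.87% and 3.01%. In bulk RNA, fewer cells with high levels and less RNA per cell cannot be told apart, and without added standards the values are relative to the other mRNAs.

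**Figure D1:**
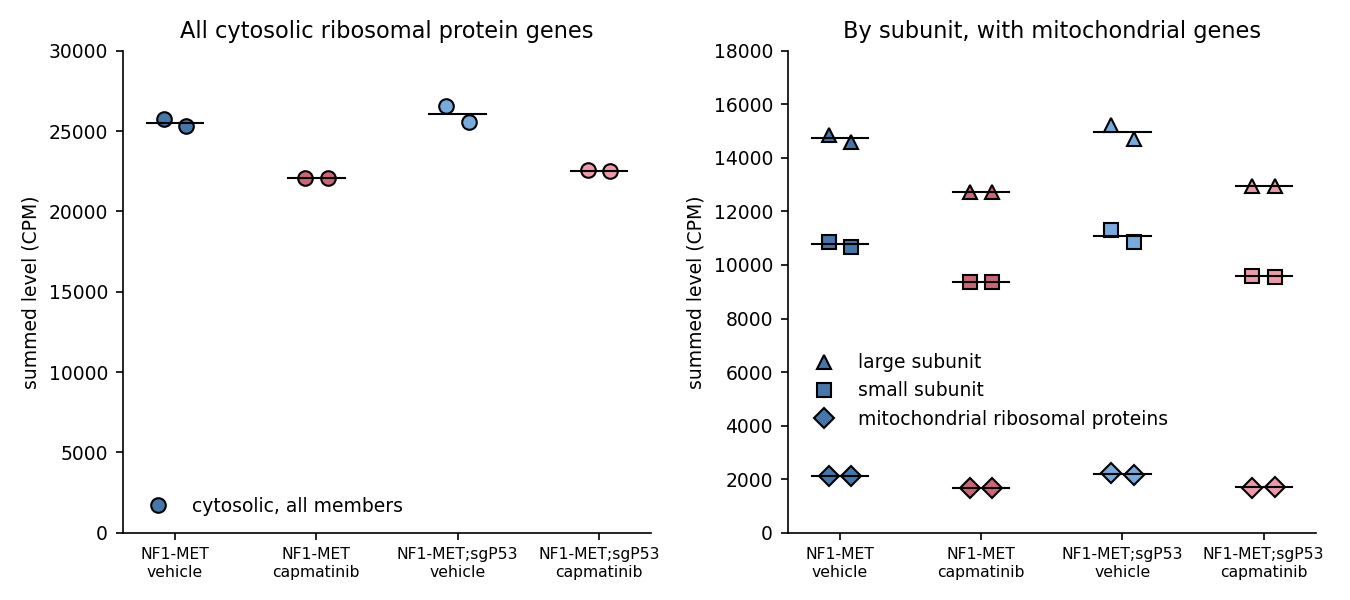
Summed level of the cytosolic ribosomal protein genes in CPM (y axis) for each library, as 1 point, with the mean of the 2 replicates as a bar, over the 4 conditions (x axis), for all members (left) and by subunit beside the mitochondrial ribosomal protein genes (right). The 4 capmatinib libraries sit between 22070 and 22550 CPM, all below the vehicle libraries at 25290 CPM or more.

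The response to capmatinib was first tested gene by gene in NF1-MET cells. With edgeR's quasi-likelihood test, adjusted over all genes, 71 of the 78 tested members fell (43 of 48 in the large and 28 of 30 in the small subunit), 2 rose and 5 were not called, while over all 14496 genes tested 34.7% fell and 35.5% rose. The members' median log2 fold change was -0.23 with an interquartile range of -0.31 to -0.16, beside 0.00 for all genes. Changes were small and narrow in range, and vehicle and capmatinib libraries did not overlap for 76 of the 78 members, against 83.5% of all genes.

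The largest fall was that of *Rpl13a*, a large subunit protein that also takes part in interferon-induced translational silencing of other mRNAs. It had 24.3 and 21.9 CPM with vehicle and 12.4 and 13.0 CPM with capmatinib, a log2 fold change of -0.88 (SE 0.071, adjusted p = 9.72e-13), and so fell by 45.6%. Its counting is less sure. Other genes of the same strand cover 35.4% of its exonic bases, and it had only 342 to 884 counts a library. *Rpl29*, a large subunit protein also known to bind heparin, went from 147 and 148 CPM to 106 and 106 CPM (-0.49, SE 0.029). *Rps29*, a zinc-binding protein of the small subunit head, had 116 and 107 CPM with vehicle and 78.04 and 83.8 CPM with capmatinib (-0.47, SE 0.036). *Rpl5*, the carrier of 5S ribosomal RNA, went from 185 and 178 CPM to 138 and 131 CPM (-0.45, SE 0.030), and *Rps2*, near the mRNA entry channel, from 962 and 962 CPM to 719 and 716 CPM (-0.44, SE 0.020). In all 5, replicates lay far closer together than the treatments.

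The 2 that rose did so by little. *Rpl10*, an X-linked protein that joins the large subunit last, had 439 and 424 CPM with vehicle and 480 and 470 CPM with capmatinib (0.12, SE 0.023, adjusted p = 2.44e-05). *Rps27*, a zinc-binding protein of the small subunit, had 231 and 220 CPM with vehicle and 237 and 242 CPM with capmatinib (0.070, SE 0.026, adjusted p = 0.0165). Both rises depend on the scaling, since with library totals in place of TMM factors the median of all genes was -0.18 and the fold changes were -0.062 and -0.11, still above that median. Without NF1-MET vehicle replicate 2 or NF1-MET capmatinib replicate 2, only 1 of them was called, as by DESeq2's Wald test. *Rpl39* in the exit tunnel (0.068, adjusted p = 0.103), *Rps20* (-0.013, adjusted p = 0.64) and the sparsely counted *Rpl24*, *Rpl6l* and *Rpl32l* did not pass the test.

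In NF1-MET;sgP53 cells capmatinib lowered 67 of the 78 members (40 of 48 and 27 of 30 by subunit), raised 1 and left 10 uncalled, with 33.4% of all 14497 genes lower and 34.2% higher. The median log2 fold change was -0.21 (interquartile range -0.28 to -0.16) against 0.00 over all genes, and 71 members had no overlap between treatments, against 82.5% of all genes. *Rpl27* led with 105 and 101 CPM with vehicle and 69.7 and 71.5 CPM with capmatinib (-0.54, SE 0.036). *Rpl8*, which lies at the peptidyl transferase center, went from 1274 and 1212 CPM to 909 and 911 CPM (-0.45, SE 0.025). *Rpl18*, another large subunit protein, had 321 and 312 CPM with vehicle and 237 and 238 CPM with capmatinib (-0.41, SE 0.030). *Rpl29* (161 and 149 CPM, then 115 and 118 CPM, -0.41) and *Rpl13a* (21.2 and 18.9 CPM, then 15.03 and 15.4 CPM, -0.39) followed, so that the 5 largest falls were all of the large subunit. *Rpl10* was again the member that rose, from 447 and 430 CPM to 476 and 463 CPM (0.10, SE 0.029, adjusted p = 0.00459), but not with library totals (-0.024, with the median of all genes at -0.12) and not past the threshold without NF1-MET;sgP53 vehicle replicate 2.

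**Figure D2:**
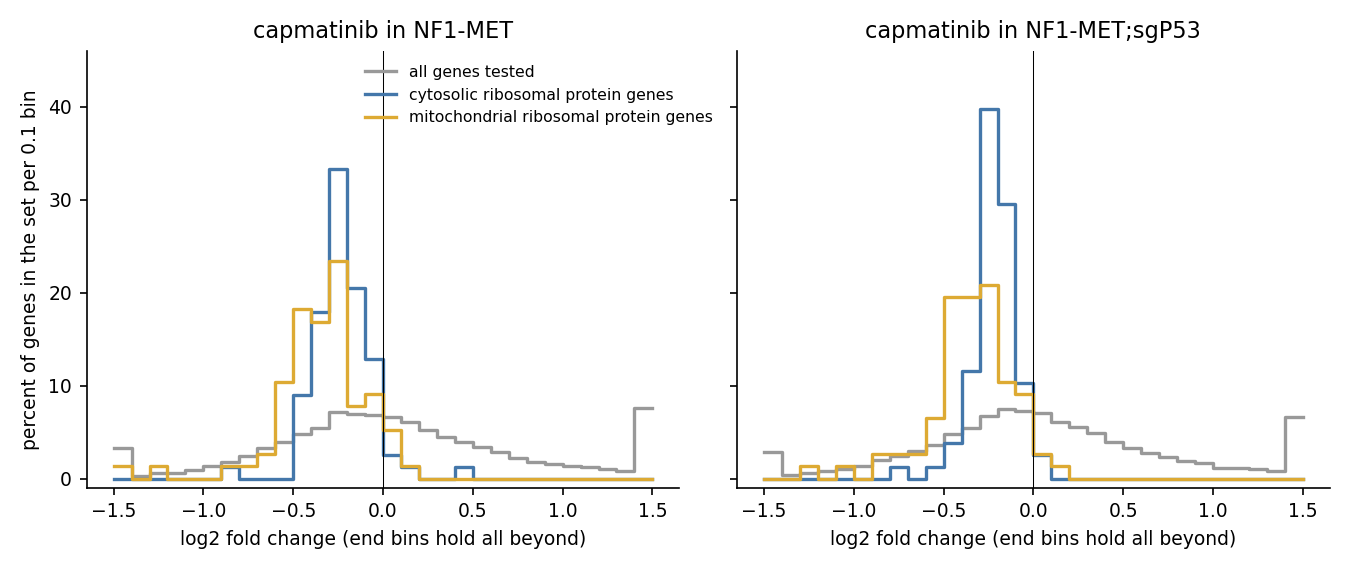
Percent of genes (y axis) in each 0.1 wide bin of log2 fold change with capmatinib (x axis), in NF1-MET (left) and NF1-MET;sgP53 (right), for all genes tested, the 78 cytosolic members and 77 mitochondrial ribosomal protein genes. The cytosolic members crowd into a narrow band below 0 with medians of -0.23 and -0.21, while all genes spread over both sides.

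The same direction was seen side by side in the pair of lines, which were compared through different libraries. Of the 78 members, 67 fell in both lines, *Rpl10* rose in both, and no member was called in opposite directions. Joint calls of this kind were not counted over all genes, so these numbers have no such background. Taken singly, 34.7% of all genes were lower and 35.5% higher in NF1-MET, against 33.4% and 34.2% for the edited line. *Rps27* was called higher in NF1-MET alone, while its value for NF1-MET;sgP53 was 0.031 (SE 0.031), with an interaction of -0.055 (adjusted p = 0.475). *Rpl10a*, *Rpl21*, *Rpl27a* and *Rps29* were called lower in NF1-MET and not in NF1-MET;sgP53, of which *Rps29* alone passed the test of the difference, and *Rpl24*, *Rpl32l*, *Rpl39*, *Rpl6l* and *Rps20* in neither. Across the 74 members left without *Rpl24*, *Rpl6l*, *Rpl32l* and *Rpl13a*, which have the fewest counts, the fold changes of the lines had Pearson's r = 0.717 and Spearman's rho = 0.658 (0.312 and 0.604 over all 78). This correlation is across genes, which are not independent replicates and share their libraries.

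**Figure D3:**
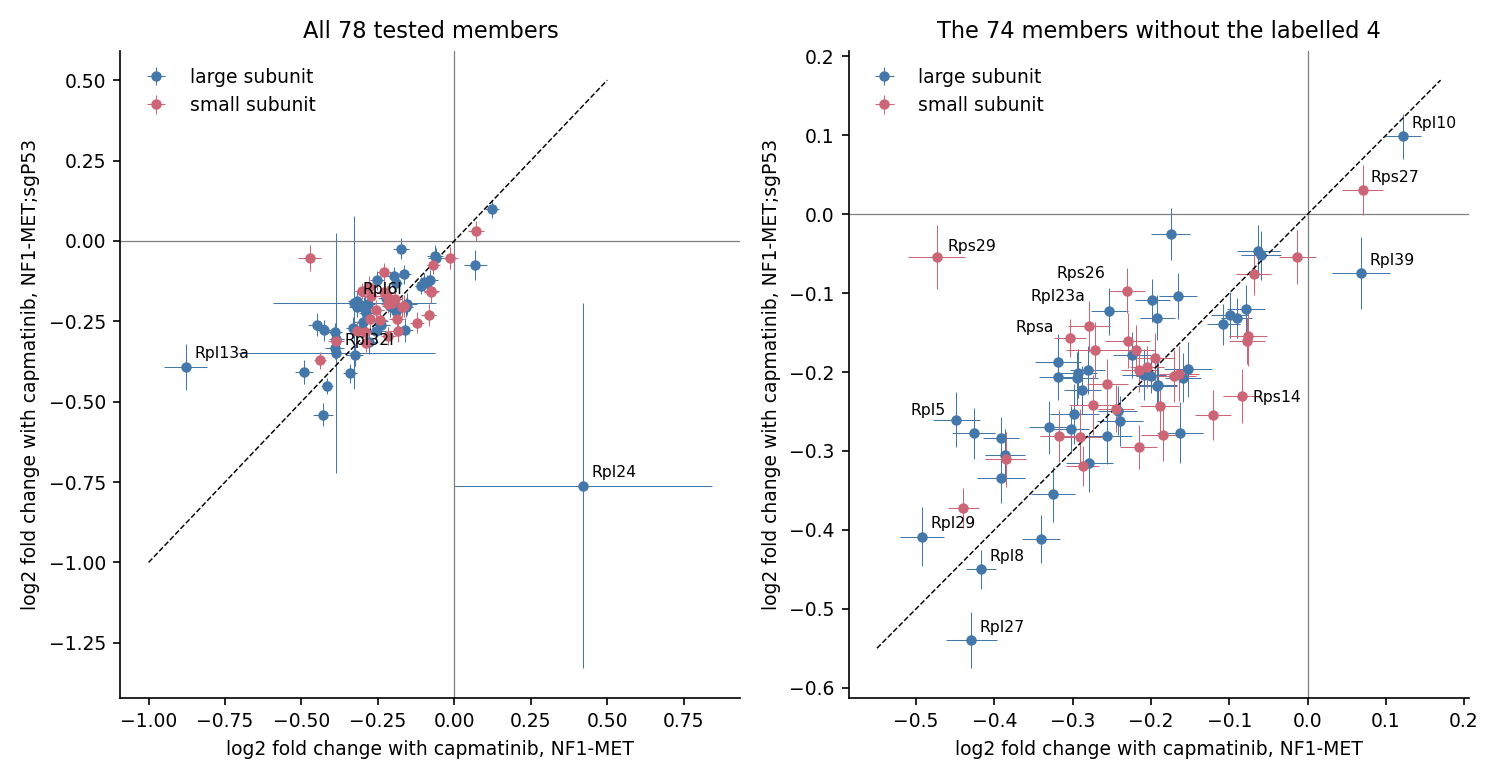
Log2 fold change with capmatinib in NF1-MET (x axis) against NF1-MET;sgP53 (y axis) for each tested member, with SE as thin lines, all 78 on the left and, enlarged, the 74 better counted on the right, where the dashed line marks equal responses. Most members lie in the lower left part near that line, *Rps29* lies far above it at -0.47 and -0.054, and *Rpl10* is up in both (with library totals it is at -0.062 and -0.024).

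Members were also read by their place in the ribosome. Of the 5S particle, *Rpl11* had 168 and 160 CPM in NF1-MET vehicle and 139 and 142 CPM with capmatinib (-0.24, SE 0.029) and fell by a like amount in NF1-MET;sgP53 (-0.26, SE 0.032). In the stalk, which recruits translation factors, all 4 genes fell in both lines. *Rplp0*, its base, changed least in NF1-MET (-0.09, beside -0.13 in NF1-MET;sgP53), *Rplp1* stood at -0.19 and -0.13, *Rplp2* at -0.29 and -0.21, and *Rpl12* at -0.29 and -0.20. Around the exit tunnel 8 of 9 fell in each line, with *Rpl39* as the exception, and *Rpl22*, an RNA-binding protein at the surface of the large subunit, fell little (-0.079 in NF1-MET, -0.12 in the edited line). Of the 14 genes of the Diamond-Blackfan anaemia list, which lose function in that inherited failure of red cell formation, all 14 fell in NF1-MET, and 13 of them also in NF1-MET;sgP53, *Rps29* being the remaining one. These shares (100% and 92.9%) lie near those of all members (91.0% and 85.9%), as do those of the stalk (100% in each line) and the exit tunnel (88.9% in each line). Among all genes tested, 34.7% fell in NF1-MET cells, and 33.4% did so in the edited line. *Rps6*, the substrate of S6 kinase, had 221 and 221 CPM with vehicle and 191 and 184 CPM with capmatinib in NF1-MET (-0.26, SE 0.026) and stood at -0.22 (SE 0.031) in NF1-MET;sgP53. *Rps27a*, made as a fusion with ubiquitin, fell by 23.5% and by 19.4%.

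The few members on the X chromosome had smaller responses at the median. The 4 tested there had a median of 0.00 in NF1-MET, and of -0.08 in the edited line, against -0.24 and -0.21 for the 74 on autosomes. They did not move as one, because *Rpl36a* fell (-0.30 and -0.25), *Rps4x* fell slightly (-0.07 in NF1-MET, with 511 and 510 CPM then 497 and 487 CPM, and -0.08 in NF1-MET;sgP53), *Rpl10* rose, and *Rpl39* was not called. In all, 29 members hold 56 annotated small nucleolar RNA genes within their bounds, and their medians (-0.27 and -0.20) were near those of the 49 others (-0.23 and -0.22). Between the response and the level or the length of a member, Pearson's r lay between 0.0351 and 0.107 over the 74 better counted members, as a description across genes.

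TOP stretches were looked for in RefSeq promoters (GRCm38.p6, 250 bases before to 50 after the annotated start), which were found for 57 of the 78 tested members (67 promoters). A run of at least 8 C or T on the sense strand within 40 bases of the start was present in 73.1% of them, in 32.0% of those of mitochondrial ribosomal protein genes and in 29.3% of all 32851 promoters. The following 30-base windows, 5′ to 3′ on the gene's strand and with the longest run inside these 40 bases in capitals, show members that fell (*Rpl35*, *Rpl18*, *Rps6*, *Rps2*, *Rpl5*, *Rpl27*), *Rpl27a*, which was called lower in NF1-MET alone, and members that rose or were not called (*Rps27*, *Rpl10*, *Rpl39*).
Rpl35, chr2:39005115-39005144, minus strand: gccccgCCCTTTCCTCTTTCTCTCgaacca
Rpl27a, chr7:109519186-109519215, plus strand: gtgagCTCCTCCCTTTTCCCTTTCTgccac
Rpl18, chr7:45718062-45718091, plus strand: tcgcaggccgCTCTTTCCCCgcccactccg
Rps6, chr4:86857349-86857378, minus strand: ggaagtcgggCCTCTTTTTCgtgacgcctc
Rps2, chr17:24720078-24720107, plus strand: actataaattgTCCCTTCCgcggcgcctcc
Rpl5, chr5:107900497-107900526, plus strand: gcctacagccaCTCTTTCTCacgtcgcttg
Rpl27, chr11:101442194-101442223, plus strand: tcatcctcgctCCTCCCTCCacacgccgga
Rps27, chr3:90213632-90213661, minus strand: ttccgctttcgCTCCTTTCCggcggtgacg
Rpl10, chrX:74270768-74270797, plus strand: gcgtcgacaccaCCCCCTggctgtaactct
Rpl39, chrX:37085225-37085254, minus strand: cgagtcatccaTCCCCCCCTaagctccgcc

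Runs at or next to the annotated start, counted in bases from it, were those of *Rpl35* (from -7), *Rpl27a* (from -4), *Rps27* (from -2), *Rps6* (from -1) and *Rpl18* (from 2). The others lay farther off, at -20 in *Rpl5*, -21 in *Rpl39*, -36 in *Rpl10*, -40 in *Rpl27* and 27 in *Rps2*, and are not terminal at the start annotated here. In *Rpl27* the limit of 40 bases cuts the run, which goes on in the 2 bases before the capitals. *Rps27* carried a run of 9 and did not fall, *Rpl35*, with a run of 18, fell in both lines (-0.39 and -0.33), and *Rpl27a*, with a run of 20, stood at -0.060 (adjusted p = 0.0362, but 0.122 by DESeq2's Wald test) and -0.052 (adjusted p = 0.147). In *Rpl10* the longest run had 6 bases, short of the 8 counted. Over the 45 members with a run of 8 or more, the median fold changes were -0.24 and -0.22, and over the 12 with a shorter run -0.28 and -0.20. Among short motifs counted on both strands, CTTTCC, which overlaps the pyrimidine runs, was in 49.3% of the members' promoters, 33.3% of those of mitochondrial ribosomal protein genes and 26.6% of all. In the same order TTCCGG was in 47.8%, 57.3% and 14.9%, the E-box CACGTG in 11.9%, 9.33% and 7.15%, and TATAAA in 10.4%, 6.67% and 13.6%. A match of letters is a description and not a bound site.

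NF1-MET;sgP53 was next compared with NF1-MET under the same treatment. With vehicle, 4 members were higher and 4 lower in NF1-MET;sgP53, beside 10.9% and 12.3% of the 14484 genes tested, and the members' median was 0.018. Among the higher were *Rps10*, which lies near the mRNA entry (163 and 161 CPM in NF1-MET, 179 and 173 CPM in NF1-MET;sgP53, 0.10, SE 0.028), *Rpl18* (0.08) and *Rpl9* (0.08). Lower were *Rpl13a* (-0.23, SE 0.068), *Rps29* (116 and 107 CPM against 104 and 96.5 CPM, -0.17, SE 0.040), *Rpl3*, which lies close to the peptidyl transferase center (-0.10, SE 0.025), and *Rpl12* (-0.08, SE 0.028). The groups did not overlap for 43 members, a share of 55.1% against 60.5% of all genes. These few calls rest on the processing and on single libraries. With library totals neither direction had a call, DESeq2 gave 0 higher and 2 lower, and 1 model over all 8 libraries gave 12 higher and 3 lower. Without NF1-MET vehicle replicate 1 there were 1 higher and 0 lower, without replicate 2 of that group 0 and 4, without NF1-MET;sgP53 vehicle replicate 1 there were 0 and 9, and without its replicate 2 there were 17 and 2.

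With capmatinib, 12 members were higher in NF1-MET;sgP53 and none lower, while 5.94% and 6.34% of the 14481 genes tested were (edgeR's quasi-likelihood test). At an unadjusted p under 0.05, 2 members were lower, and DESeq2's Wald test called 8 higher and 0 lower. *Rpl13a* had 12.4 and 13.0 CPM in NF1-MET and 15.03 and 15.4 CPM in NF1-MET;sgP53 (0.26, SE 0.071, adjusted p = 0.0211). *Rps29* had 78.04 and 83.8 CPM against 99.5 and 93.6 CPM (0.25, SE 0.037, adjusted p = 1.10e-04). *Rpl29* (0.14), *Rps12*, a small subunit protein (0.12), and *Rpl5* (0.12) came next, and *Rpl21*, *Rpl41*, *Rps27a*, *Rpsa*, *Rplp1*, *Rpl7a* and *Rps2* lay between 0.08 and 0.11. Over all 78 members the median was 0.034 and 47 did not overlap, that is 60.3% against 52.3% of all genes. Only 2 were called with library totals, under which the median of all genes was 0.11. Without NF1-MET capmatinib replicate 1 the count was 6, without replicate 2 of that group 8, and without NF1-MET;sgP53 capmatinib replicate 2, 17 were higher and 2 lower.

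Whether the response to capmatinib itself differed between lines was tested by the interaction over the 8 libraries. It was positive, that is less of a fall in NF1-MET;sgP53, for 6 members and negative for 2, beside 3.85% and 5.86% of all 14497 genes, with a median of 0.00 against -0.03. *Rps29* showed it most plainly, as its NF1-MET fall from 116 and 107 CPM to 78.04 and 83.8 CPM stood beside 104 and 96.5 CPM and then 99.5 and 93.6 CPM in NF1-MET;sgP53, where the treatments overlapped (interaction 0.41, SE 0.062, adjusted p = 5.96e-05). For *Rpl13a* it was 0.47 (SE 0.10, adjusted p = 0.00335), and both kept their calls in all 17 alternatives. None of these alternatives changed how reads were assigned to genes. *Rpl5* (0.17, adjusted p = 0.0274) kept it in 12 of 17. *Rpsa*, also known as the laminin receptor, had 899 and 879 CPM with vehicle and 726 and 732 CPM with capmatinib in NF1-MET, against 882 and 860 CPM and then 789 and 774 CPM in NF1-MET;sgP53 (0.13, adjusted p = 0.0089, kept in 15 of 17).

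*Rps26* at the mRNA exit channel (0.12, adjusted p = 0.0446) and *Rpl23a* at the exit tunnel (0.11, adjusted p = 0.0492) lay close to the threshold and kept their calls in 9 of 17 each, neither with library totals. *Rps14*, whose loss of 1 copy is known from the 5q- syndrome, fell more in NF1-MET;sgP53 (-0.16, adjusted p = 0.0267, kept in 9 of 17). *Rps14* went from 442 and 445 CPM to 435 and 411 CPM in NF1-MET and from 491 and 453 CPM to 393 and 412 CPM in NF1-MET;sgP53. Counts of higher and lower calls turned with the processing, from 6 and 2 to 13 and 0 without ribosomal RNA rows and 2 and 0 with library totals. They were 2 and 1 without NF1-MET vehicle replicate 1, 5 and 0 without its replicate 2, 4 and 0 without NF1-MET capmatinib replicate 1, 3 and 2 without its replicate 2, 7 and 0 without NF1-MET;sgP53 vehicle replicate 1, 3 and 6 without its replicate 2, 3 and 0 without NF1-MET;sgP53 capmatinib replicate 1, and 11 and 1 without its replicate 2.

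**Figure D4:**
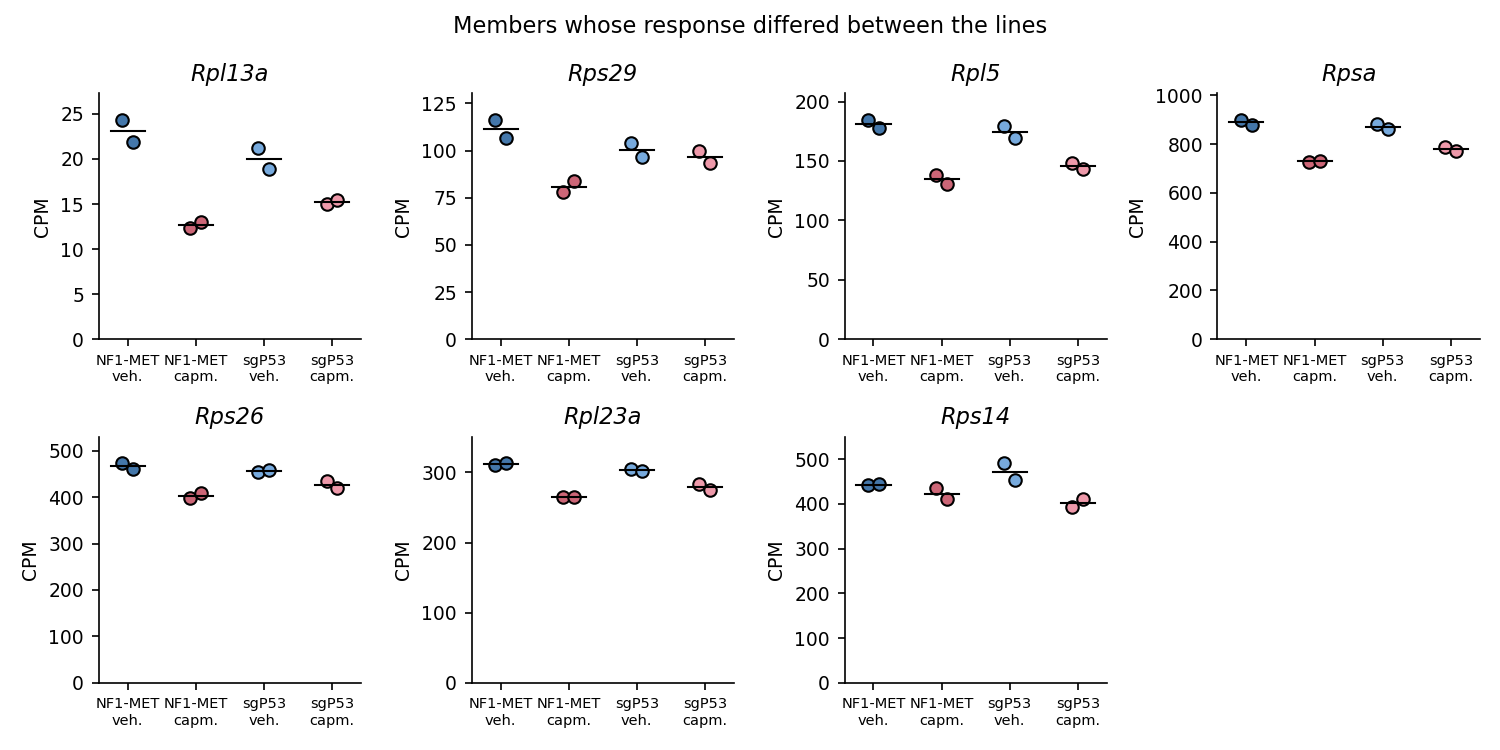
CPM (y axis, from 0) in each library, as points with the mean of 2 replicates as a bar, for 7 of the 8 members whose response to capmatinib differed between lines, over vehicle (veh.) and capmatinib (capm.) in NF1-MET and NF1-MET;sgP53 (marked sgP53). *Rps29* falls from 116 and 107 CPM to 78.04 and 83.8 CPM in NF1-MET and overlaps between treatments in NF1-MET;sgP53, and those other than *Rps29* and *Rpl13a* differ by less on the log2 scale.

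*Rpl13a* (ENSMUSG00000074129, mm10 chromosome 7, 45125558 to 45128761, minus strand) and *Rps29* (ENSMUSG00000034892, chromosome 12, 69157722 to 69159186, minus strand) differ in how surely they were counted. Exons of *Rps29* overlap no other annotated gene, and it had 2160 to 4259 counts a library. Of the exonic bases of *Rpl13a*, 35.4% lie under other genes of the same strand, among them *Gm45713*, which had no counts, and it had only 342 to 884 counts. *Rpl24*, at 7 to 21 counts, has 47.0% of its exonic bases under *Gm28037*, also without counts. For *Rps10*, other genes cover 28.7% of the exonic bases, and those of the same strand 20.6%. Exons of *Rpl35* (66.2%), *Rpl23a* (62.3%) and *Rpl5* (26.7%) overlap other genes, nearly all of it on the opposite strand, and whether counting used the strand is not given in the sources used here. The part of these overlaps in the values was not tested. Rows of -ps pseudogenes held 0.736% to 0.847% as many counts as the members.

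Per kilobase of mRNA, levels spread widely among the members, although a ribosome holds most of these proteins in a single copy, with RPLP1 and RPLP2 of the stalk as exceptions. The median over the 78 members was 296 CPM per kb, with the 10th percentile at 111 and the 90th at 646 (ratio 5.84, or 4.24 over the 74 better counted members). By the length of the mRNA *Rpl8* was highest, at 1288 ± 18.6 CPM per kb in NF1-MET vehicle and 976 ± 3.98 with capmatinib (SD, n = 2), followed by *Rplp1* (1017 ± 1.06 and 901 ± 3.45). *Rps15*, a small subunit protein at the decoding site (879 ± 16.3 and 751 ± 4.98), came next by the mean over all libraries, but with vehicle *Rps2* lay above it (920 ± 0.518, and 686 ± 1.504 with capmatinib). Lowest were *Rpl24* (0.54 ± 0.074 in NF1-MET vehicle) and the pseudogenes *Rpl6l* (1.48 ± 0.26) and *Rpl32l* (2.28 ± 0.69), far below the rest. Reads that fit several gene copies may be missing from such values, and their order depends on the length taken. With the union of all exons as length *Rplp1* was highest over all libraries (982 CPM per kb) and *Rpl8* stood at 785.5 (982 and 1142 by the mRNA), and the ratio of the percentiles was 9.77.

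**Figure D5:**
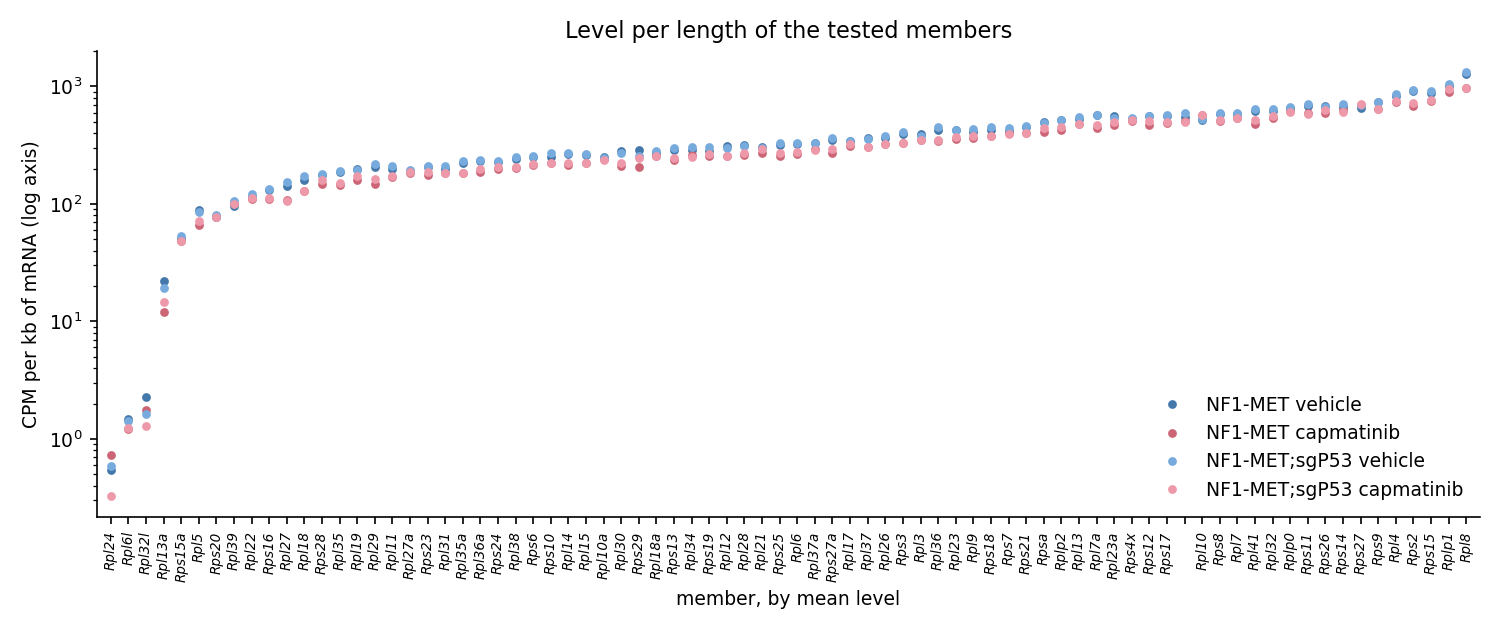
Mean level in CPM per kb of mRNA (y axis, log scale) for each of the 78 tested members, in order of mean level (x axis), with 1 point for each of the 4 conditions. The 4 members from *Rpl24* to *Rpl13a* sit well below the others, and *Rpl8* is highest near 1288 CPM per kb in NF1-MET vehicle.

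Other genes were read beside the members, in lists to be set against all genes tested, of which 34.7% fell and 35.5% rose in NF1-MET and 33.4% fell and 34.2% rose in NF1-MET;sgP53. Mitochondrial ribosomal protein genes, which build the ribosome inside mitochondria, had lower medians still, as 59 of 77 were lower and 1 higher in NF1-MET (median -0.33) and 62 lower and 15 not called in NF1-MET;sgP53 (median -0.33), led by *Mrps6* (-1.55 and -1.23) and *Mrpl38* (-1.26 and -1.04). Their sums were 2127 and 2126 CPM with vehicle and 1684 and 1679 CPM with capmatinib in NF1-MET, and 2218 and 2154 CPM, then 1681 and 1701 CPM in NF1-MET;sgP53. Of 9 ribosomal genes whose symbols the rule missed, 7 fell and 1 rose in NF1-MET and 6 fell in NF1-MET;sgP53. *Rack1*, a signaling scaffold on the small subunit (-0.14 and -0.20), *Fau* (-0.22 and -0.23), *Rps3a1* (-0.14 and -0.13) and *Rpl36al* (-0.35 and -0.28) fell in both lines. *Rps27l*, a known p53 target and paralog of *Rps27*, fell with capmatinib (-0.34 and -0.42), while its line difference with vehicle was -0.025 (SE 0.036, adjusted p = 0.683). *Rpl22l1*, the paralog of *Rpl22*, was called higher with capmatinib in NF1-MET (0.10) and stood at -0.08 (adjusted p = 0.203) in NF1-MET;sgP53. With library totals its NF1-MET value was -0.091, still above the median of all genes at -0.18.

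Chaperones of ribosomal proteins fell with them, 8 of 8 in NF1-MET (median -0.43) and 7 of 8 in NF1-MET;sgP53 (median -0.50), among them *Grwd1*, which escorts RPL3 (-1.08 and -1.23), *Tsr2*, which escorts RPS26 (-0.57 and -0.70), *Pdcd2*, which escorts RPS2 (-0.48 and -0.48), and *Bccip* (-0.44 and -0.41). Of the 6 genes that assemble the 5S particle or answer to it, 5 fell and 1 rose in NF1-MET, and 4 fell in NF1-MET;sgP53. *Rrs1* (-0.999 and -1.05) and *Rpf2* (-0.84 and -0.94), which load the particle into the large subunit, fell in both. *Mdm2*, the ubiquitin ligase of p53 and itself a p53 target, had 106 and 104 CPM in NF1-MET vehicle and 79.5 and 82.1 CPM with capmatinib (-0.39), against 76.6 and 75.2 CPM and then 72.9 and 71.7 CPM in NF1-MET;sgP53 (-0.07, adjusted p = 0.0719), with an interaction of 0.30 (SE 0.045).

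Among 19 other TOP mRNAs 15 fell and 1 rose in NF1-MET (median -0.21, interquartile range -0.45 to -0.05). In NF1-MET;sgP53 14 fell and 1 rose (median -0.15, interquartile range -0.43 to -0.07). The largest falls in NF1-MET were those of *Npm1*, a nucleolar chaperone (-0.78 and -0.69), *Hnrnpa1* (-0.65 and -0.51), *Nap1l1* (-0.51 and -0.51) and *Pabpc1*, the poly(A) binding protein (-0.50 and -0.39). Of 10 non-coding hosts of small nucleolar RNAs 5 fell and 2 rose in NF1-MET (50% and 20%) and 8 fell and 2 rose in NF1-MET;sgP53 (80% and 20%), where *Snhg15* fell (-0.63 and -0.84) and *Snhg12* rose (0.66 and 0.62). Of 18 genes for mTORC1 signaling and the control of TOP mRNAs 9 fell and 4 rose in NF1-MET (50% and 22.2%) and 9 fell and 5 rose in NF1-MET;sgP53 (50% and 27.8%), not far from the shares of all genes. *Ddit4*, an inhibitor of mTORC1, rose by 2.09 and 2.38 on the log2 scale, *Sesn2*, another inhibitor, by 0.93 and 1.09, and *Eif4e*, the cap-binding protein, fell by 0.80 and by 0.74. Against these, *Deptor*, also an inhibitor, fell by 0.27 and by 0.44, and *Rheb*, the activating GTPase of mTORC1, rose by 0.23 and 0.13. *Rheb* was not called with library totals (0.049 and 0.0088, with the median of all genes at -0.18 and -0.12), nor in NF1-MET;sgP53 without vehicle replicate 2 of that line (0.094).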

How the data were processed

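Poly(A) RNA of 8 cell culture libraries was sequenced from both ends. Tools named in the submitters' processing notes are bcl2fastq 1.9.0, FastQC 0.11.7, Trim Galore 0.4.2 and STAR 2.5.2b with mm10. The deposited values are raw counts per gene, which the authors took from STAR without normalization, and such counts as a rule leave out reads that map to several places. Annotation release and strand setting are not given in the sources used here. Positions, lengths and overlaps came from GENCODE M21, in which 50376 identifiers were found, and rows without a symbol held 0.00729% of counts.

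A gene was kept if 2 or more libraries had 10 or more counts, and was tested with edgeR 4.0.16 (R 4.3.3, limma 3.58.1) by the quasi-likelihood F-test with TMM factors within each comparison, Benjamini-Hochberg adjustment over all genes and a threshold of 0.05. A gene also needed counts in at least 2 libraries of the comparison. The biological coefficient of variation was 2.34% to 4.28%. SE came from the fold change and the F statistic. CPM printed in the report use TMM factors over all 8 libraries, so ratios can differ slightly from fitted fold changes. Fits were checked on simulated counts. Alternatives were library totals, DESeq2 1.42.0 (its size factors and its Wald test), TMM without the members, no ribosomal RNA rows, other filters, the bias-adjusted test, a replicate block, 1 model over all libraries and each library left out. The union of exons as length was added after the data were seen.

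Earlier results of these data were known when the members, the lists and the naming rule were chosen. The rule takes the 5 largest called rises and falls of each comparison, members with a known role, the 3 highest and lowest per length, and up to 4 called genes of a list. *Rpl23a*, *Rpl36a*, *Rpl35*, *Rpl27a*, *Rps20*, *Deptor*, *Rheb*, *Gm42418* and other members named as counts of a few genes lie outside it and were named after their values were seen. Some genes are not reported here by name.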

Additional observations from a re-analysis of the deposited data

Results flagged for a closer look

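For 8 members the response to capmatinib differed between the lines by the interaction term, given here as the log2 response in NF1-MET;sgP53 minus that in NF1-MET (edgeR's quasi-likelihood test, adjusted over all genes, with 2 libraries in each of the 4 conditions). The 6 positive differences were 0.47 for *Rpl13a*, 0.41 for *Rps29*, 0.17 for *Rpl5*, 0.13 for *Rpsa*, 0.12 for *Rps26* and 0.11 for *Rpl23a*. Among the negative ones was -0.16 for *Rps14*. Over 17 alternatives *Rps26*, *Rpl23a* and *Rps14* kept their calls in 9 each, and their directions did not turn. Groups of 2 libraries are too small for a test of single outlying samples.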

How the results depend on the processing

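Counts of members that fell with capmatinib moved little under any alternative, between 66 and 72 in NF1-MET and between 63 and 71 in NF1-MET;sgP53. With library totals in place of TMM factors the median of all genes became -0.18, -0.12, 0.06, 0.11 and 0.05 for capmatinib in NF1-MET, capmatinib in NF1-MET;sgP53, the lines with vehicle, the lines with capmatinib and the interaction, and that of the members -0.42, -0.33, 0.075, 0.15 and 0.073, so that the distance between both was -0.24, -0.21, 0.02, 0.03 and 0.02. Members higher were then 0 and 0 with capmatinib, 0 (and 0 lower) for the lines with vehicle, 2 for the lines with capmatinib and 2 (and 0 lower) for the interaction, and the rises of *Rpl10* (-0.062 in NF1-MET, -0.024 in NF1-MET;sgP53), *Rps27* (-0.11) and *Rpl22l1* (-0.091) turned. DESeq2's Wald test gave 1 higher with capmatinib in NF1-MET, 0 higher and 2 lower for the lines with vehicle, and 1 lower in the interaction. With all 8 libraries in 1 model 12 were higher between lines with vehicle. The interaction had 13 higher and 0 lower without ribosomal RNA rows and 12 higher without a filter. The causes were not tested. Without ribosomal RNA rows in the totals the mean shares were 2.89%, 2.29% and 2.96% in NF1-MET vehicle, NF1-MET capmatinib and NF1-MET;sgP53 vehicle. The ratio of the 90th to the 10th percentile was 5.64 without length and 9.77 with the union of exons.

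With 1 library left out, the lone sample being taken to vary like the other group, members higher and lower were 1 to 2 and 68 to 70 (median -0.25 to -0.21) with capmatinib in NF1-MET, 0 to 1 and 65 to 71 (-0.24 to -0.19) in NF1-MET;sgP53, 0 to 17 and 0 to 9 (-0.01 to 0.04) for the lines with vehicle, 6 to 17 and 0 to 2 (0.03 to 0.03) for the lines with capmatinib, and 2 to 11 and 0 to 6 (-0.03 to 0.02) for the interaction.

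Replicate numbers were entered as a replicate block in 1 alternative. Libraries of the same number had correlations of -0.06 to 0.18 in their deviations, with 2 numbers only, so they were taken to share no more than a number. Under the block the lines with vehicle had 10 members higher and 7 lower, and the other counts stayed within 1.5 times. *Rpl24*, *Rpl6l* and *Rpl32l* had only 7 to 58 counts, and with capmatinib no difference was detectable at that number.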
